A study of Homo sapiens with 6 samples.

Results

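ATF4, a transcription factor gene of the integrated stress response, and 9 genes it is known to activate (DDIT3, TRIB3, DDIT4, CHAC1, ASNS, SESN2, VLDLR, STC2 and CEBPG) were followed in 6 RNA sequencing libraries of Huh7, a human hepatocellular carcinoma cell line. They were found by gene symbol, 10 of 10, among the 58233 genes listed in each library. In 3 libraries the cells had been transfected with a plasmid that overexpresses TP53TG1, a long noncoding RNA gene known as a p53 target, and in the other 3 with a control plasmid, which the design text calls an empty vector. The labels do not give the dose, the time after transfection or the promoter of the plasmid, and leave unsaid if replicates came from separate cultures. The p-values thus measure only the spread between these libraries, which may be technical. Values were taken as FPKM, which the file headers do not state (fragments per kilobase of transcript, relative to sequencing depth), summed over the transcripts of a gene.

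In the integrated stress response, kinases that sense unfolded protein in the endoplasmic reticulum, missing amino acids, viral RNA or lack of heme phosphorylate the translation factor eIF2. Most protein synthesis then slows, while upstream open reading frames let the ATF4 mRNA be translated more. ATF4 pairs with other basic leucine zipper proteins and activates genes for amino acid synthesis and transport, for brakes on the growth kinase mTORC1, and for cell death. Because ATF4 is controlled largely at translation, an ATF4 mRNA level does not give the amount of the protein.

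The DNA element through which ATF4 acts, the C/EBP-ATF response element, was searched for as TGATGNAA on both strands in the 250 bases before each RefSeq start site (GRCh38.p14). All 10 genes had such windows, 16 in number, and 3 genes held a match. Of all 35116 windows 3.14% held one. This share is per window while the 3 is per gene, and a gene with several windows has more chances of a match. The values thus cannot be compared directly. The matches are shown because these 3 genes carry the letters of the element close to their start, with the match in capitals, 5′ to 3′ on the strand of the gene. The full cAMP response element, TGACGTCA, was in 1.65% of all windows and in none of the 16. A match is a description and does not show binding.
ASNS, chr7:97872458-97872487, minus strand, 68 to 61 bases before the start: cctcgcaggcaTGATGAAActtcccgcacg
CHAC1, chr15:40953251-40953280, plus strand, 209 to 202 bases before the start, element in reverse: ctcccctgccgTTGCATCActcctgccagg
CEBPG, chr19:33374060-33374089, plus strand, 42 to 35 bases before the start of one of its RefSeq transcripts: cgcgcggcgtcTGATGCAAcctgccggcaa

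TP53TG1 was at 69.8, 134 and 70.5 FPKM in the libraries labelled TP53TG1 (replicates 1 to 3), against 10.6, 5.25 and 6.15 FPKM in control replicates 1 to 3, with no overlap. Its log2 fold change was 3.46 (SE 0.381), with a limma Benjamini-Hochberg adjusted p of 0.0573. The adjusted p passed 0.05 in scaled FPKM (0.0391), with the replicate number as a block (8.97e-22) and with both (0.00888). The block value on deposited FPKM rests on a spread pooled over genes. That gave TP53TG1 an SE of 0.332, where its own SE over the 3 same-numbered pairs of libraries was 0.53. The FPKM of a library summed to 599081 to 625560 with TP53TG1 and to 667387 to 890541 in the controls, and the median log2 fold change of the 12853 genes tested (mean of at least 1 FPKM) was -0.35. Scaling each library by its median ratio to the others (median-of-ratios scaling) brought that median to -0.01, with factors of 0.61, 1.10 and 0.98 with TP53TG1 and 1.10, 1.18 and 1.17 in the controls. Values after this division are called scaled FPKM below. Both libraries numbered 1 stood apart from the rest in the mean length of protein-coding RNAs, weighted by FPKM. It was 1229 nt with TP53TG1 and 1313 nt in the control, against 1654 to 1711 nt in the other 4. The liver genes ALB (0.53 to 1.22 FPKM), AFP (0.63 to 3.49 FPKM), APOA1 (0.18 to 0.43 FPKM) and TTR (0 to 0.17 FPKM) were low or near 0, while the liver factor gene HNF4A was at 2.57 to 14.98 FPKM. Of 13 hepatocyte markers 10 reached a mean of 1 FPKM, as did 7 of 12 markers of other cell types, among them the intestinal gene KRT20 at 51.1 to 171 FPKM. The label of a liver cancer line was thus met in part only.

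None of the 10 genes passed the test of TP53TG1 against control, and 1 TP53TG1 library held most of the difference. All 10 had a log2 fold change below 0, with a median of -0.97 against -0.35 for all genes tested, and -0.57 against -0.01 in scaled FPKM. By limma on log2(FPKM + 1) with Benjamini-Hochberg adjustment over all genes, 0 of the 10 were called, where 0% of genes were called lower and 0.00778% (1 gene) higher, and 0 of the 10 in scaled FPKM, where these shares were 0% and 0.0156%. At an unadjusted p under 0.05 there were 2 of the 10, ATF4 and TRIB3, both lower, against 1.91% of all genes lower and 0.436% higher. In scaled FPKM it was 1 of the 10, TRIB3, against 0.451% of all genes lower. A log2 fold change below 0 was found for 91.4% of all genes as deposited and for 51.7% after scaling, where all 10 kept it. In TP53TG1 replicate 3 the scaled values of 8 of the 10 genes were the lowest of the 6 libraries, against 16.3% of all genes. When TP53TG1 replicate 3 was left out, the median of the 10 in scaled FPKM was -0.02, against -0.03 for all genes, with 5 genes above 0 and 5 below. That library was left out after its low values were seen, so a move toward 0 was built in. Of the 2 TP53TG1 libraries then left, replicate 1 held the lowest scaled value of the 6 libraries for 30.9% of all genes.

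**Figure D1:**
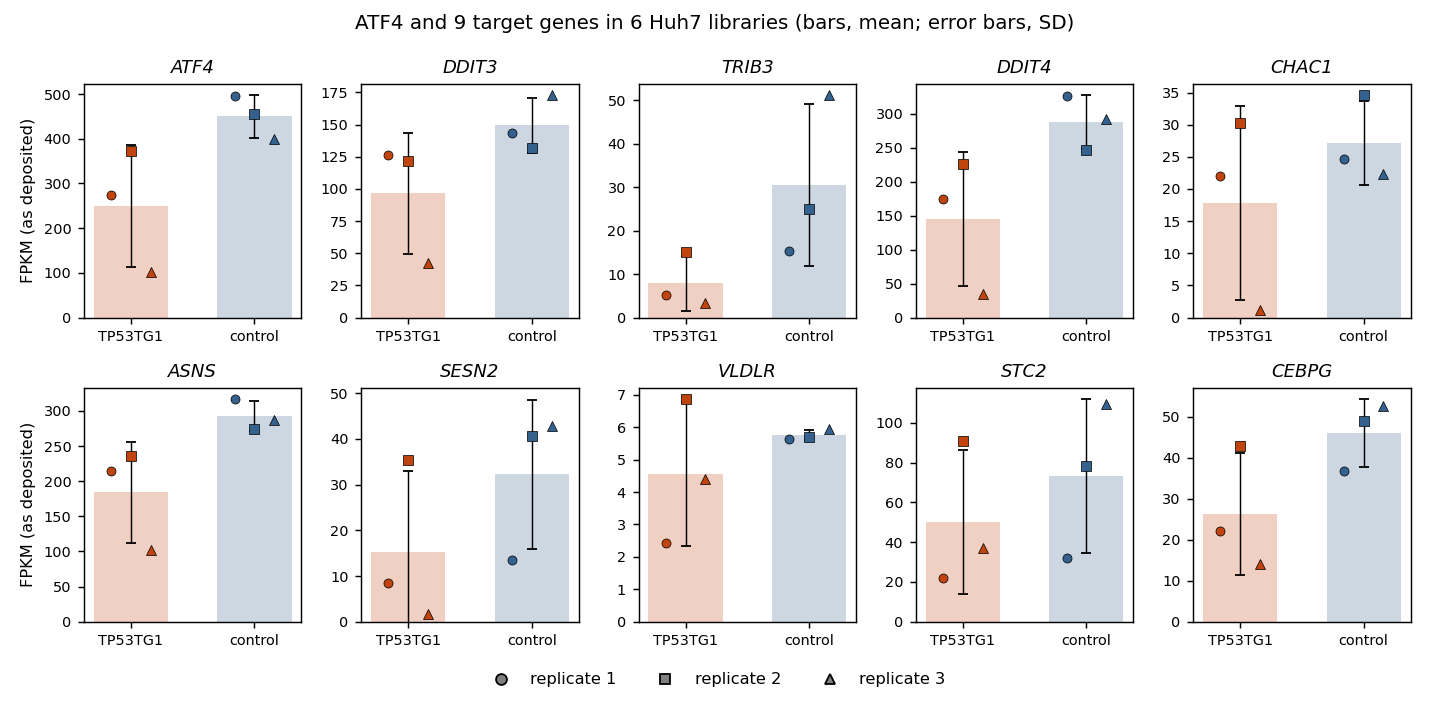
FPKM as deposited (y axis, from 0) of ATF4 and 9 target genes in 3 TP53TG1 libraries (left) and 3 control libraries (right). Bars show means and error bars the SD (n = 3); the lower error bar of SESN2 with TP53TG1 runs below 0 and is cut off. The triangle, TP53TG1 replicate 3, is the lowest point for all genes shown except VLDLR and STC2.

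The regulator itself came first in level. ATF4 (ENSG00000128272, chromosome 22, 39519695 to 39522685, plus strand, coordinates of GRCh38 from GENCODE 29) was at 275, 372 and 103 FPKM in the 3 TP53TG1 libraries and at 496, 455 and 399 FPKM in control libraries. The groups did not overlap, and the lowest value, in TP53TG1 replicate 3, was well apart from the others. Its mean was 250 ± 136 FPKM with TP53TG1 and 450 ± 48.3 FPKM in control libraries (SD, n = 3 each), with a log2 fold change of -1.03 (SE 0.435, limma with Benjamini-Hochberg adjusted p = 0.748). In scaled FPKM the values were 452, 338 and 105 with TP53TG1 and 449, 387 and 341 in the controls. The groups then overlapped, TP53TG1 replicate 1 was the highest of the 6, and the log2 fold change was -0.63 (SE 0.522, adjusted p = 1). In FPKM as deposited 5 of the 10 genes had all TP53TG1 libraries below all controls (ATF4, DDIT3, TRIB3, DDIT4 and ASNS), where 13.3% of all genes did. After scaling this held for 1 of the 10, TRIB3, and for 2.18% of all genes.

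DDIT3 and CEBPG encode basic leucine zipper proteins that pair with ATF4 or with its relatives. DDIT3, also called CHOP and known as a promoter of cell death under prolonged stress (ENSG00000175197, chromosome 12, 57516588 to 57521737, minus strand), was at 126, 122 and 42.2 FPKM with TP53TG1 and at 143, 132 and 173 FPKM in control libraries. TP53TG1 replicates 1 and 2 were close to the lower controls and replicate 3 was far below them. DDIT3 had a log2 fold change of -0.77 (SE 0.418, limma adjusted p of 0.748). CEBPG (ENSG00000153879, chromosome 19, 33373330 to 33382686, plus strand) was at 22.1, 42.8 and 14.05 FPKM with TP53TG1 and at 36.7, 48.9 and 52.6 FPKM in control libraries. The groups overlapped in FPKM through TP53TG1 replicate 2, and the log2 fold change was -0.91 (SE 0.408, adjusted p = 0.748 by limma).

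TRIB3 had the lowest log2 fold change of the 10. It encodes a pseudokinase that binds AKT and is known to restrain ATF4 in turn (ENSG00000101255, chromosome 20, 362835 to 397559, plus strand). Its values were 5.23, 15.05 and 3.24 FPKM with TP53TG1 and 15.3, 24.95 and 51.2 FPKM in control libraries. The highest TP53TG1 value lay just under the lowest control, and the controls themselves were widely spread. The log2 fold change was -1.90 (SE 0.581, adjusted p = 0.748) and -1.54 in scaled FPKM (SE 0.550, adjusted p = 1, limma). It was -1.05 (SE 0.506, adjusted p = 1) in scaled FPKM without TP53TG1 replicate 3.

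DDIT4 and SESN2 encode inhibitors of mTORC1, and both are also known to respond to other stresses such as low oxygen or p53. DDIT4 (ENSG00000168209, chromosome 10, 72273920 to 72276036, plus strand) was at 174, 225 and 35.3 FPKM with TP53TG1 and at 326, 246 and 293 FPKM in control libraries. SESN2 (ENSG00000130766, chromosome 1, 28259527 to 28282491, plus strand) was at 8.39, 35.3 and 1.77 FPKM with TP53TG1 and at 13.4, 40.5 and 42.8 FPKM in control libraries. For both genes TP53TG1 replicate 3 was the lowest library, and for SESN2 both libraries numbered 1 were also low. The log2 fold change was -1.35 for DDIT4 (SE 0.601) and -1.60 for SESN2 (SE 0.850), each with an adjusted p of 0.748 by limma.

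CHAC1 and ASNS act in amino acid and glutathione metabolism. CHAC1, an enzyme gene whose product degrades glutathione (ENSG00000128965, chromosome 15, 40952962 to 40956519, plus strand), was at 22.0, 30.3 and 1.12 FPKM with TP53TG1 and at 24.6, 34.7 and 22.3 FPKM in control libraries. TP53TG1 replicate 2 lay within the range of the controls, replicate 1 just below it and replicate 3 far below. The log2 fold change of CHAC1 was -1.27 (SE 0.880, adjusted p = 0.748) and 0.43 (SE 0.288, adjusted p = 1) in scaled FPKM without TP53TG1 replicate 3 (limma). ASNS, the asparagine synthetase gene (ENSG00000070669, chromosome 7, 97852118 to 97872542, minus strand), was at 215, 236 and 102 FPKM with TP53TG1 and at 317, 274 and 288 FPKM in control libraries. Its groups did not overlap as deposited, and the scaled value of TP53TG1 replicate 1, 354, was above all 3 scaled controls (287, 234 and 245). The log2 fold change of ASNS was -0.76 (SE 0.337) and -0.35 in scaled FPKM (SE 0.430), with adjusted p of 0.748 and 1 by limma.

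STC2 and VLDLR did not have their lowest value in TP53TG1 replicate 3. STC2, which encodes the secreted glycoprotein stanniocalcin 2 (ENSG00000113739, chromosome 5, 173314713 to 173329503, minus strand), was at 22.1, 91.0 and 37.1 FPKM with TP53TG1 and at 32.2, 78.2 and 109 FPKM in control libraries. Both libraries numbered 1 were low and TP53TG1 replicate 2 was above 2 of the 3 controls. VLDLR, a receptor for triglyceride-rich lipoproteins (ENSG00000147852, chromosome 9, 2621834 to 2660053, plus strand), was at 2.43, 6.87 and 4.39 FPKM with TP53TG1 and at 5.64, 5.70 and 5.95 FPKM in control libraries. The highest and the lowest of the 6 VLDLR values were both TP53TG1 libraries. The log2 fold change was -0.61 for STC2 (SE 0.576) and -0.36 for VLDLR (SE 0.390), and -0.22 and -0.045 in scaled FPKM. Single libraries moved these values: without TP53TG1 replicate 1 they were -0.16 (STC2) and -0.054 (VLDLR), without TP53TG1 replicate 2 -1.16 and -0.65, and for STC2 -1.11 without control replicate 1 and -0.24 without control replicate 3. In the exact permutation test on FPKM (two-sided, 3 libraries a group), where 0.1 is the smallest possible p, ATF4, DDIT3, TRIB3, DDIT4 and ASNS gave p = 0.1, SESN2 and CEBPG 0.2, CHAC1 and VLDLR 0.4 and STC2 0.6.

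**Figure D2:**
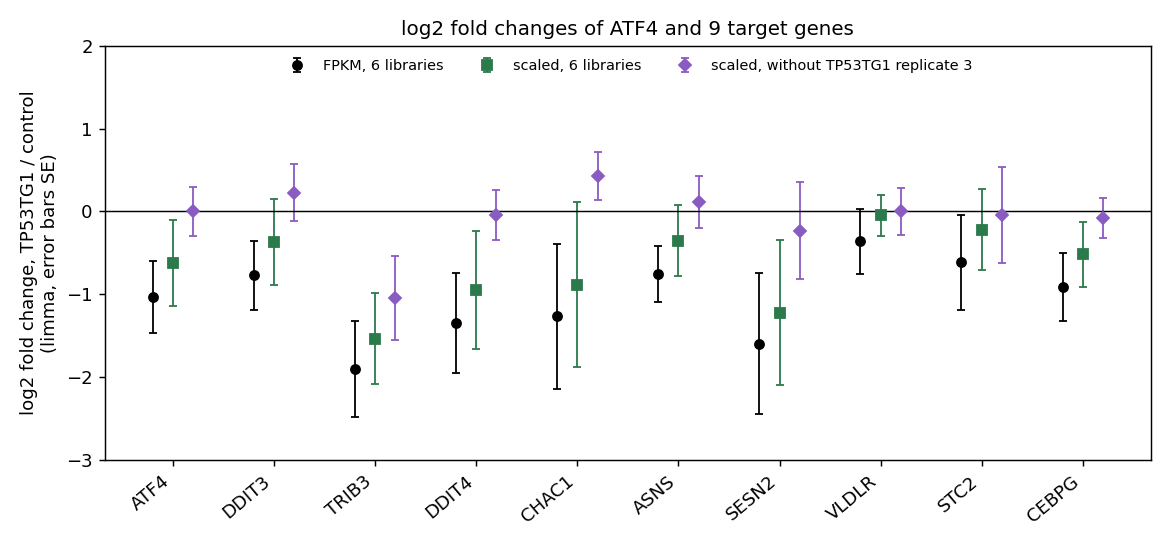
log2 fold change of TP53TG1 over control by limma on log2(value + 1), with its SE, for FPKM as deposited in all 6 libraries, for scaled FPKM in all 6, and for scaled FPKM without TP53TG1 replicate 3. With that library left out, a choice made after the values were seen, all genes except TRIB3 lie between -0.23 and 0.43.

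FPKM are per length, but an order between genes is only approximate here. The weighted length of protein-coding RNAs was 1313 nt in control replicate 1, against 1682 and 1710 nt in control replicates 2 and 3. Ordered by the mean of the controls, the levels were 450 ± 48.3 FPKM for ATF4, 293 ± 21.8 for ASNS, 288 ± 39.8 for DDIT4, 149 ± 21.4 for DDIT3, 73.2 ± 38.8 for STC2, 46.1 ± 8.31 for CEBPG, 32.2 ± 16.4 for SESN2, 30.5 ± 18.6 for TRIB3, 27.2 ± 6.55 for CHAC1 and 5.76 ± 0.164 for VLDLR (SD, n = 3). ASNS and DDIT4 did not differ beyond their spread, nor did SESN2, TRIB3 and CHAC1 among each other. In the TP53TG1 libraries the means were 250 ± 136 FPKM for ATF4, 184 ± 72.0 for ASNS, 145 ± 98.2 for DDIT4, 96.6 ± 47.1 for DDIT3 and 50.1 ± 36.2 for STC2. Below them came CEBPG at 26.3 ± 14.8 FPKM, CHAC1 at 17.8 ± 15.04, SESN2 at 15.2 ± 17.8, TRIB3 at 7.84 ± 6.32 and VLDLR at 4.56 ± 2.23 (SD, n = 3). The SD was larger with TP53TG1 than in the controls for 8 of the 10 genes, all but TRIB3 and STC2.

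The libraries of both groups are numbered 1 to 3, and libraries of the same number deviated together from their group means. The difference was therefore also taken within each number. Deviations from a mean of 3 libraries sum to 0, so a likeness of the libraries numbered 1 can make the others deviate together too. That numbers 2 and 3 are pairs was thus not shown separately. In scaled FPKM + 1, the log2 difference of TP53TG1 minus control had a median over the 10 genes of 0.15 in pair 1, -0.10 in pair 2 and -1.72 in pair 3, where the median of all genes was -0.02, -0.02 and 0.02. In pair 3 it was -3.74 for SESN2, -3.38 for TRIB3, -3.23 for CHAC1 and -2.76 for DDIT4. ATF4, at -1.69, DDIT3 at -1.76, CEBPG at -1.58, STC2 at -1.28 and ASNS at -1.24 differed by less, and VLDLR by -0.15. A difference below 0 was found for 3 of the 10 genes in pair 1, 8 in pair 2 and 10 in pair 3, against 52% (pair 1), 54.7% (pair 2) and 48.2% (pair 3) of all genes. A difference of -1 or lower was thus found in pair 3 for 9 of the 10 genes and for 3.92% of all genes. In pair 1 none of the 10 genes reached -1, against 2.20% of all genes, and in pair 2 none did, against 0.941%. DDIT3 and CHAC1 were higher with TP53TG1 in pair 1, by 0.67 and 0.68. TRIB3 differed in the same direction in every pair, by -0.63, -0.60 and -3.38, as did DDIT4 by -0.04, -0.04 and -2.76, which made 2 of the 10 genes against 14.4% of all genes. In FPKM as deposited 8 of the 10, all but VLDLR and STC2, were lower in every pair, against 44.8% of all genes.

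**Figure D3:**
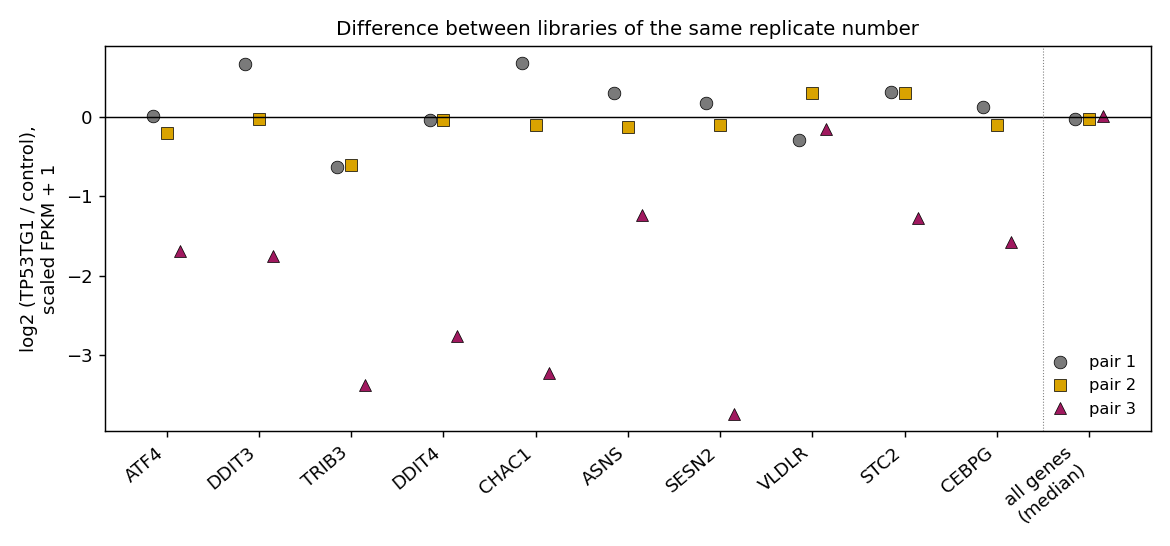
log2 difference between the TP53TG1 and the control library of the same replicate number, on scaled FPKM + 1, for each gene and for the median of the 12853 genes tested. Pair 3 (triangles) lies at -1.24 or lower for 9 genes, while pairs 1 and 2 lie between -0.63 and 0.68.

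With the replicate number as a block in the fit, 5 of the 10 genes were called lower with TP53TG1: TRIB3 (adjusted p = 3.93e-06), SESN2 (0.000343), DDIT4 (0.000425), ATF4 (0.0118) and CHAC1 (0.0147), by limma with Benjamini-Hochberg adjustment. In that fit 0.91% of all genes were called lower and 0.584% higher. With median-of-ratios scaling added to the block 0 of the 10 passed (adjusted p from 0.896 to 0.983), 0% of all genes were called lower and 0.0467% higher. The small p-values of the block fit on deposited FPKM rest on a pooled spread, since limma's prior degrees of freedom were infinite there and each gene took the spread typical of its level. That gave CHAC1 an SE of 0.336 and SESN2 0.336, where their own SE over the 3 pairs was 1.10 for CHAC1 and 1.20 for SESN2. For TRIB3 the block SE was 0.337 and its own 0.884, for DDIT4 0.287 and 0.863, and for ATF4 0.268 and 0.487. The pair differences in FPKM + 1 show where this own spread lay: -0.16, -0.19 and -3.46 for CHAC1 and -0.62, -0.19 and -3.98 for SESN2 in pairs 1, 2 and 3. With scaling the prior degrees of freedom were 4.12, and the fold change and SE of the block fit were -1.54 and 0.546 for TRIB3, -1.22 and 0.735 for SESN2 and -0.95 and 0.534 for DDIT4.

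In library measures, its TP53TG1 level and the sums of cell type markers, TP53TG1 replicate 3 lay within the range of the other 5 libraries. Its FPKM sum was 625560 and its scaling factor 0.98. Mitochondrial mRNAs held 11.2% of its FPKM, where the other 5 libraries ranged from 10.3% to 14.6%. Its weighted length of protein-coding RNAs was 1654 nt, and TP53TG1 itself stood at 70.5 FPKM, next to 69.8 FPKM in TP53TG1 replicate 1. The hepatocyte markers summed to 94.2 FPKM in it, within 55.8 to 120 FPKM in the other TP53TG1 libraries and below 122 to 145 FPKM in control libraries. The markers of other cell types summed to 164 FPKM, within 119 to 180 FPKM in the other TP53TG1 libraries and below 180 to 255 FPKM in control libraries. Among these markers, SFTPC was at 0 in every library, PTPRC, VWF and MLANA were at most 0.24 FPKM and KRT5 at most 0.94 FPKM. CD68 was at 32.4 to 65.2 FPKM, highest in TP53TG1 replicate 3, PECAM1 at 1.02 to 5.72, COL1A1 at 1.81 to 10.9, ACTA2 at 0.87 to 2.59, VIL1 at 0.71 to 5.99 and CDX2 at 4.71 to 10.2 FPKM. In TP53TG1 replicate 3 AFP (3.49 FPKM) was also at its highest, and CDX2 (4.71), TF (3.51) and CEBPA (13.6) at their lowest. The remaining markers did not lie outside the range of the other 5 libraries there. The part of these measures in the result was not tested, and in bulk RNA fewer cells of a type and less RNA per cell cannot be told apart.

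TP53TG1 replicate 3 was also the lowest library for most other known ATF4 targets. Of 54 such genes in 4 lists (amino acid synthesis, amino acid transport, tRNA synthetases, and other stress and growth factors) 49 were tested and none passed. The median log2 fold change was -0.79, and -0.39 in scaled FPKM. The lists were chosen with earlier results of these data known. By replicate number the median scaled difference was 0.12 in pair 1, -0.09 in pair 2 and -1.16 in pair 3. A difference of -1 or lower was reached by 1, 0 and 31 of the 49 genes, against 2.20%, 0.941% and 3.92% of all genes. TP53TG1 replicate 3 held the lowest scaled value of 37 of the 49, against 16.3% of all genes. Without that library, left out after the values were seen, the scaled median was -0.08. In the block fit on deposited FPKM 9 of the 49 were called lower and 0 higher, against 0.91% and 0.584% of all genes. With scaling added it was 0 of the 49. The 9 calls rest on the pooled spread described above.

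Among the amino acid synthesis genes, PSAT1, of the serine pathway, was at 170, 316 and 108 FPKM with TP53TG1 and at 272, 338 and 383 FPKM in control libraries. CBS, which starts the conversion of homocysteine to cysteine, was at 14.2, 38.4 and 8.58 FPKM with TP53TG1 and at 39.1, 45.9 and 52.0 FPKM in control libraries. Both had their lowest value in TP53TG1 replicate 3. SLC6A9, a glycine transporter gene, was at 7.58, 18.0 and 4.65 FPKM with TP53TG1 and at 13.9, 23.6 and 32.8 FPKM in control libraries. SARS, the seryl-tRNA synthetase gene, was at 133, 169 and 82.8 FPKM with TP53TG1 and at 223, 201 and 223 FPKM in control libraries. Of 12 tRNA synthetase genes tested, 11 were lowest in TP53TG1 replicate 3 after scaling, with a median difference of -0.97 in pair 3. GDF15, a stress-induced secreted factor that is also a p53 target, was at 354, 431 and 24.7 FPKM with TP53TG1 and at 421, 424 and 670 FPKM in control libraries, a scaled difference of -4.45 in pair 3 against 0.61 and 0.12 in pairs 1 and 2. All of these had a limma adjusted p of 0.748. The block fit called CBS (0.00412), SLC6A9 (0.0173) and GDF15 (4.14e-07) on deposited FPKM and none of them with scaling (adjusted p from 0.896 to 0.909).

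Genes upstream of ATF4, and its relatives and partners, were set beside these. The 4 eIF2 kinase genes had a median scaled difference of 0.23, 0.05 and 0.36 in pairs 1, 2 and 3. EIF2AK4, the kinase that senses uncharged tRNA, was at 15.1, 17.4 and 16.4 FPKM with TP53TG1 and at 13.2, 17.9 and 15.1 FPKM in control libraries. The 11 genes of eIF2, of its exchange factor eIF2B and of its phosphatase had medians of -0.03, -0.09 and 0.18. Among 12 relatives and partners of ATF4 the median was 0.01, -0.07 and -0.59, and CEBPB, a basic leucine zipper gene that is itself an ATF4 target, was at 63.9, 74.1 and 32.3 FPKM with TP53TG1 and at 107, 93.7 and 116 FPKM in control libraries. No gene of these lists passed without the block. With the block on deposited FPKM 1 of the 12 relatives and partners was called lower, ATF3 (log2 fold change -1.38, limma adjusted p = 0.00478), and none with scaling added (0.898 for ATF3). ATF3 was named after its values were seen. It is also 1 of the 9 other ATF4 targets called above, so its call is not a further result.

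The other branches of the unfolded protein response and 2 further pathways that act on some of the 10 genes were set beside them. The 15 tested targets of ATF6 and XBP1, mostly chaperone genes of the endoplasmic reticulum, had a median scaled difference of 0.14, 0.09 and 0.47 in pairs 1, 2 and 3, and 1 of them was lowest in TP53TG1 replicate 3. That list includes XBP1 itself, at 83.7, 172 and 73.1 FPKM with TP53TG1 and at 143, 175 and 177 FPKM in control libraries, with a scaled difference of -1.01 in pair 3. Hypoxia targets (14 tested), a pathway known to act on DDIT4, had medians of 0.11, 0.54 and 0.24. VEGFA, which is on that list and on the ATF4 list, was at -0.34, 0.32 and -1.09 in this measure. For p53 targets (14 tested), a pathway known to act on SESN2, the medians were 0.00, -0.02 and -0.07. Of these 14 genes 4 were lowest in TP53TG1 replicate 3, against 16.3% of all genes. GDF15, which is on that list and on the ATF4 list, was at 0.61, 0.12 and -4.45 in this measure, and BBC3 at 0.57, -0.85 and -1.38. None of the genes on these 3 lists passed without the block, and the difference between lists was not tested.

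**Figure D4:**
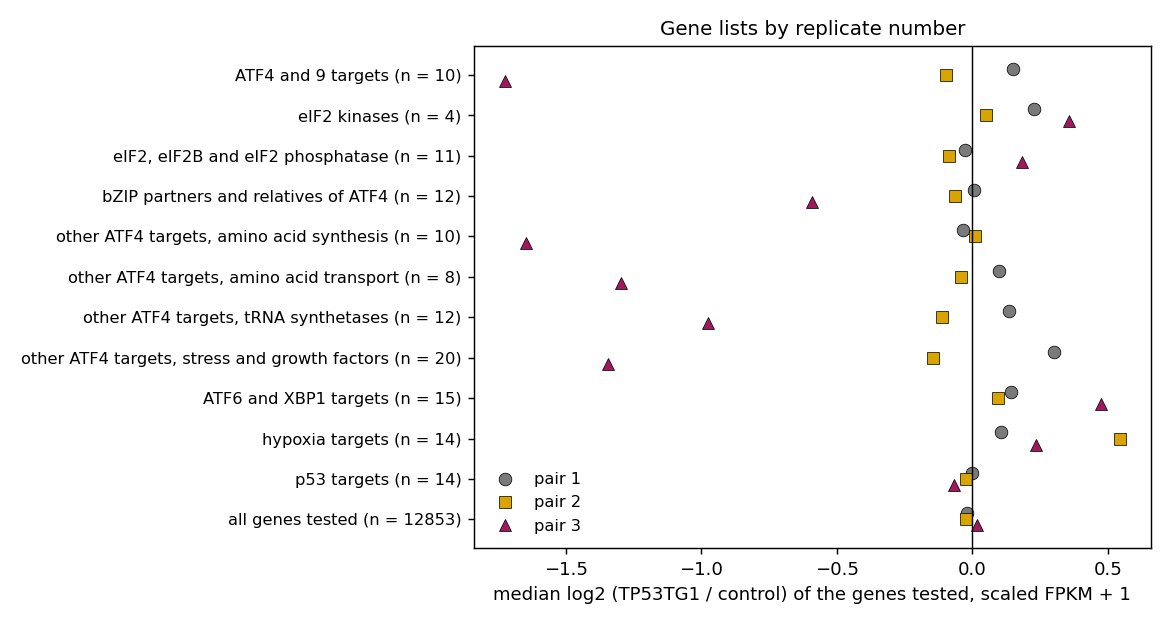
Median log2 difference between TP53TG1 and control libraries of the same replicate number, on scaled FPKM + 1, over the tested genes (n) of each list. In pair 3 (triangles) the 4 lists of other ATF4 targets lie between -1.65 and -0.97, the ATF6 and XBP1 targets at 0.47 and all genes at 0.02.

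The genes whose scaled values followed the mean profile of the 10 most closely were ADM2, PXK, PSAT1, XBP1 and ZFAND1, with Pearson r of 0.998, 0.997, 0.995, 0.992 and 0.988 over the 6 libraries. They were taken from 8369 protein-coding genes whose mean reached 5 FPKM, of which 98 (1.17%) had r above 0.9. The profile itself (mean z-score of the 10 genes) was at -1.63 in TP53TG1 replicate 3 and between 0.12 and 0.58 in the other 5 libraries. ADM2, a peptide hormone gene, was at 7.32, 16.1 and 0.51 FPKM with TP53TG1 and at 11.6, 17.5 and 20.0 FPKM in control libraries.

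Transcript tables showed which RNA of each gene carried these values. ENST00000396680 (1419 nt) held 97.8 ± 2.08% of the ATF4 FPKM with TP53TG1 and 98.7 ± 0.264% in the controls, and ENST00000307365 (1748 nt) 97.3 ± 1.52% and 96.4 ± 1.20% for DDIT4 (SD, n = 3 each). SESN2 has 1 listed transcript. For DDIT3, ENST00000346473 (906 nt) held 73.6 ± 1.49% with TP53TG1 and 73.2 ± 1.13% in the controls, and for VLDLR ENST00000382099 (3240 nt) held 81.4 ± 7.08% and 79.9 ± 4.13% (SD, n = 3 each). These shares do not depend on the scale of a library. For CHAC1 the main transcript held 67.1 ± 22.95% with TP53TG1 and 82.7 ± 7.996% in the controls, and for TRIB3 83.4 ± 22.1% and 92.2 ± 7.38% (SD, n = 3 each), a spread larger than the difference in each. With 3 libraries a group no exact permutation test of a share can reach 0.05.

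Other genes split differently between libraries. ENST00000394308 held 31.6%, 83.1% and 84.6% of the ASNS FPKM with TP53TG1 and 61.4%, 80.9% and 86.6% in the controls, so both libraries numbered 1 were low. In them ENST00000455086 reached 75.2 FPKM (TP53TG1) and 108 FPKM (control), against 9.24 to 19.6 FPKM in the other 4, and ENST00000437628 was at 64.1 FPKM in TP53TG1 replicate 1 and listed at 0 in the other 5. For STC2 a 582 nt retained-intron RNA, ENST00000519511, was listed at 0 in TP53TG1 replicate 1, with 32.1 and 10.9 FPKM in TP53TG1 libraries 2 and 3, and at 2.01, 26.5 and 44.7 FPKM in control libraries. The long STC2 transcript alone, ENST00000265087 (5353 nt), was at 21.8, 49.9 and 23.1 FPKM with TP53TG1 and at 29.3, 44.7 and 53.4 FPKM in control libraries. In CEBPG, ENST00000585933 was at 9.88 and 6.62 FPKM in TP53TG1 replicates 1 and 2 and listed at 0 in replicate 3, against 9.65, 12.0 and 11.1 FPKM in control libraries. The TRIB3 transcript ENST00000449710 was at 5.23, 13.8 and 1.89 FPKM with TP53TG1 and at 12.8, 24.0 and 49.6 FPKM in control libraries, again lowest in TP53TG1 replicate 3. CHAC1 values came mainly from ENST00000617768 at 11.7, 28.4 and 0.61 FPKM with TP53TG1 and at 21.3, 25.5 and 19.7 FPKM in control libraries. The split of a gene between overlapping transcripts is an estimate of the quantification software.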

How the data were processed

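Total RNA of 6 cell samples was made into libraries with a TruSeq RNA kit, per the labels' protocols. The authors made FPKM per transcript and library before deposit, with HISAT2 and StringTie on GRCh38.p10, as far as the submitters' processing notes name tools and a build. For versions, annotation release and strandedness the answer is not given in the sources used here. No unit stands in the deposited header, and FPKM was taken because values are not whole and library sums differ, though coverage per base is not excluded. FPKM carry no correction for RNA composition, and the number of fragments behind a value was not derived here. The titles of the overexpressing libraries read TP53TP1, and their group was checked against the genotype label.

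Symbols, blank in 0 to 88000 rows of a library, were filled by transcript, and transcripts were summed per gene. Transcript lengths and coordinates came from GENCODE 29 (GRCh38), which held 99.8% of the transcripts. The test took genes whose mean reached 1 FPKM, on log2(FPKM + 1) with limma 3.58.1 (trend) in R 4.3.3, threshold 0.05, and the fit was tested on simulated data. The simulation had independent noise of the same size for every gene, with no pairing and no outlying library. It therefore cannot show how the fit or the block behaves on libraries like these. The added 1 makes fold changes of low genes too small. Scaled values were divided by the median, over genes above 0 in all 6 libraries, of the ratio to their geometric mean. Promoter sequences are RefSeq's. Python 3.11.15, pandas 2.3.3 and matplotlib 3.10.9 were used.

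Between same-numbered libraries, deviations from the group means correlated at 0.710 (1), 0.562 (2) and 0.289 (3). Each exceeds 0.1, the limit for calling them paired. Deviations from a mean of 3 libraries sum to 0, so a likeness of the libraries numbered 1 alone also raises the correlations of numbers 2 and 3. These are therefore no separate evidence that numbers 2 and 3 are pairs. The pairing thus comes from the data, since the labels give only the numbers, and the block is reported for the 10 genes, TP53TG1 and the lists. Besides the 10 genes and TP53TG1, up to 3 genes per list with the smallest p and the 5 genes most like the mean profile could be named, and ATF6 and XBP1 targets, hypoxia and p53 lists were set beside them. Cell type markers were named for the check of the label, and transcripts after their values were seen. The genes and lists were chosen with earlier results of these data known. Alternatives were other scalings, pseudocount, filters, the block, the main transcript alone and each library left out.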

Additional observations from a re-analysis of the deposited data

How the results depend on the processing

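Of 180 values of the 10 genes under 18 alternatives, 170 kept their direction and their side of the threshold. Without the replicate block the adjusted p of the 10 ran from 0.587 to 1. The block moved the count of genes called from 1 to 192, of the 10 from 0 to 5 and of the other lists from 0 to 9. It called ATF4 (log2 fold change -1.03), TRIB3 (-1.90), DDIT4 (-1.35), CHAC1 (-1.27) and SESN2 (-1.60), and changed no other call of the 10. With block and scaling 6 genes were called, with scaling alone 2, with a mean of at least 5 FPKM 2, and with no filter 0. Leaving out 1 library gave 0 to 1 called genes, 0 without control replicate 1 or control replicate 3, and a median of the 10 from -1.36 (without TP53TG1 replicate 2) to -0.50 (without TP53TG1 replicate 3). In FPKM as deposited, leaving out TP53TG1 replicate 3 gave -0.49 for ATF4, -0.26 for DDIT3, -0.53 for DDIT4, -0.048 for CHAC1, -0.38 for ASNS, -0.68 for SESN2 and -0.55 for CEBPG, and leaving out TP53TG1 replicate 2 gave -1.99 for CHAC1 and -2.54 for SESN2. Both alternatives that follow were chosen after seeing the data. Without both libraries numbered 3, 0 genes were called. With scaling and without TP53TG1 replicate 3, 0 genes were called and the median of the 10 was -0.021. The sign then turned for ATF4 (0.0037), DDIT3 (0.23), CHAC1 (0.43), ASNS (0.11) and VLDLR (0.00061). Those values rest on 2 TP53TG1 libraries. Main transcript shares do not depend on scaling, filter or pseudocount. All 54 leave-one-out values moved by less than the spread between replicates, which arithmetic fixes for 3 libraries a group. They thus give no evidence of stability. For ASNS the difference in share was -9.92 points, but 7.51 without TP53TG1 replicate 1 and -18.99 without TP53TG1 replicate 3.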
